A study of Homo sapiens with 12 samples.

Results

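Neuropeptides are short signalling peptides cut from larger precursors and released from dense-core vesicles, and granins are acidic proteins packed into the same vesicles. The genes described here were a fixed list of 10, taken from the 58302 genes counted: 7 peptide precursors (SST, NPY, TAC1, CCK, PENK, POMC and GAL) and 3 granins (SCG2, CHGA and CHGB). They were chosen by name, and no measured value entered the choice. RNA had been sequenced from 12 samples, 2 in each of 6 groups, of H1 cells, a human embryonic stem cell line, after they had been turned into neural progenitor cells (NPCs) by SMAD inhibition. Wild-type (WT) cells were compared with double knockout (dKO) cells, in which the catalytic JmjC part of both UTX (KDM6A) and JMJD3 (KDM6B), the demethylases that remove H3K27me3, had been deleted in selected clones, and the labels do not say from how many clones the 2 dKO samples of a group came. WT-NPC and dKO-NPC cells were spheres at passage 2 (P2) and WT-NPC-P4 and dKO-NPC-P4 cells were spheres at passage 4 (P4), all kept with FGF2 and EGF. WT-D28 and dKO-D28 cells were P2 NPCs plated for 28 days without FGF2 and EGF in a medium with GDNF, BDNF and cAMP.

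A precursor is made with a signal peptide, enters the regulated secretory pathway, and is cut by the prohormone convertases and trimmed by carboxypeptidase E. Granins aggregate in the trans-Golgi network, help to form the dense-core vesicle, and are themselves cut into peptides. In the forebrain, SST and NPY mark groups of GABAergic interneurons, POMC and NPY mark opposed neurons of the hypothalamic arcuate nucleus, and SCG2 and CHGB are found in many kinds of neuron and neuroendocrine cell.

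The SST promoter holds the palindrome TGACGTCA, the cAMP response element bound by CREB, a textbook element of this gene, and the promoters of the list that hold it are shown first. Promoters of 6 of the 10 genes were matched by symbol in RefSeq (GRCh38.p14), from 250 bases before to 50 after the start, and PENK, GAL, SCG2 and CHGB had no entry. The last 120 bases before the start are printed 5′ to 3′ on the gene's strand for SST and CHGA, which both hold the element (in capitals), and for NPY, which does not and whose counts moved the other way from those of SST.
SST: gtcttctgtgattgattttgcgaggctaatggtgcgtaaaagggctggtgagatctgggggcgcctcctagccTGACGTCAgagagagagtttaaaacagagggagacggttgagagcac
CHGA: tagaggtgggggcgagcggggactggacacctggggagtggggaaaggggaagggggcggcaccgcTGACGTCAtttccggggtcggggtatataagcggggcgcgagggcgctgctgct
NPY: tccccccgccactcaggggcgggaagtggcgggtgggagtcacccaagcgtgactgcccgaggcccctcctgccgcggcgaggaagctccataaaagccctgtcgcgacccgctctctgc
The windows are chr3:187670395-187670514 (minus strand), chr14:92923030-92923149 (plus strand) and chr7:24284070-24284189 (plus strand). The 8 letters TGACGTCA, the same on both strands, began at -47 in SST and at -54 in CHGA, counted from the start, and were held by 649 of the 35116 promoters in the table (1.85%). Its first 5 letters, TGACG, searched on both strands and contained in the full element, was held by 24.6% of promoters, and outside the full element it lay at -197 on the minus strand of TAC1. TATAA, searched on both strands, was held by 20.4% of promoters. It lay at -29 in POMC and CHGA, at -215 in SST, and at -212 (minus strand) and -211 (plus strand) in CCK. These matches describe the letters of the windows, and whether the element or the cAMP in the medium bears on any of the counts was not tested.

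Total counts per sample were between 756942 and 10601172, lowest in P2 NPCs (756942 to 1438807) and highest in WT-D28 cells, so that 3 counts were worth 3.86 CPM (counts scaled to library size) in the shallowest sample and 0.297 CPM in the deepest. The deletions removed part of each gene, and counts over whole genes do not check them: KDM6A was between 43.6 and 60.4 CPM in WT and between 27.3 and 58.5 CPM in dKO samples, and KDM6B between 115 and 202 CPM over all samples. Summed CPM of 14 neuron markers was 4830 and 4820 in WT-D28 samples, and all 14 were detected in each of the 6 groups. The 2 samples of dKO-D28 cells stood apart from each other. Their counts differed by a chi-square of 11.3 per degree of freedom, against 1.57 to 2.72 in the other groups, and 14 of 14 neuron markers were higher in sample 1. Called changes of the 10 genes between dKO-D28 cells and 1 other group are therefore given with and without each of these samples. List counts are given so where leaving one out moved them. The differences between differentiation changes are given for all samples only in SCG2 and CHGB. In bulk RNA, fewer cells of a type and less RNA per cell cannot be told apart. The labels name replicates but not separate cultures, so the spread between 2 samples may be technical. The comparisons below share groups with each other.

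At the levels reached, 3 of the 10 genes averaged 20 counts per sample or more, the limit of the main test: SCG2 with 1106, CHGB with 238 and SST with 52.3. The others had means of 9.33 (NPY), 8.25 (POMC), 6.5 (PENK), 3.67 (GAL), 3.33 (TAC1), 1.25 (CHGA) and 0.667 (CCK), and they were tested only in a wider fit of the 34982 genes with at least 1 count, which holds all 10. A gene was called when its unadjusted p in edgeR's quasi-likelihood test was below 0.05 and its fold change above 2. Adjusted p-values are Benjamini-Hochberg values over all genes of the fit, and errors of log2 fold changes are standard errors. The 2 fits set the spread from different genes, and their p-values are not on 1 scale. For dKO against WT cells at day 28, CHGB had adjusted p = 9.54e-10 in the main test and 4.71e-105 in the wider fit. SST had 6.07e-07 and 8.12e-48, and SCG2 had 0.000529 and 0.00153, at similar fold changes. Small p-values of the wider fit still rest on 2 samples per group.

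When WT NPCs were differentiated, SCG2, CHGB and SST were called higher, and among the 7 lower genes POMC, PENK and GAL were called lower. In the same comparison 24.4% of the 13454 genes of the main test and 16.0% of the genes of the wider fit were called. SST reached the limit of 20 counts only through WT-D28 cells, so that its calls in the main test in any comparison with WT-D28 cells were bound to follow, and are given as a description only. PENK's call rested on 1 count against 2 (ratio 0.0577, interval 0.000977 to 1.11, adjusted p = 0.125) and was lost when any of 3 of the 4 samples was left out, as was GAL's. When dKO NPCs were differentiated, 0 of the 3 genes and, of the 7 lower ones, NPY alone was called (higher), against 7.15% of genes in the main test and 7.67% in the wider fit. Of the 3 genes, 0 were also called by DESeq2. Without dKO-D28 sample 1 all 3 were called lower, and without dKO-D28 sample 2 the count stayed at 0.

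At day 28, SCG2 and CHGB were called lower in dKO than in WT cells, as was SST by way of the filter, and NPY, PENK and POMC were called higher in the wider fit. The background was 24.2% of genes in the main test and 17.3% in the wider fit. The difference between the differentiation changes of dKO and WT cells was called for SCG2 and CHGB, and for SST by way of the filter (background 23.2%), and in the wider fit for POMC among the 7 lower genes (background 12.2%). It passed the adjusted threshold for SCG2 and CHGB in the main test and for SCG2, CHGB, SST and POMC in the wider fit. For SST the adjusted p was 0.101 in the main test and 0.0238 in the wider fit.

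**Figure D1:**
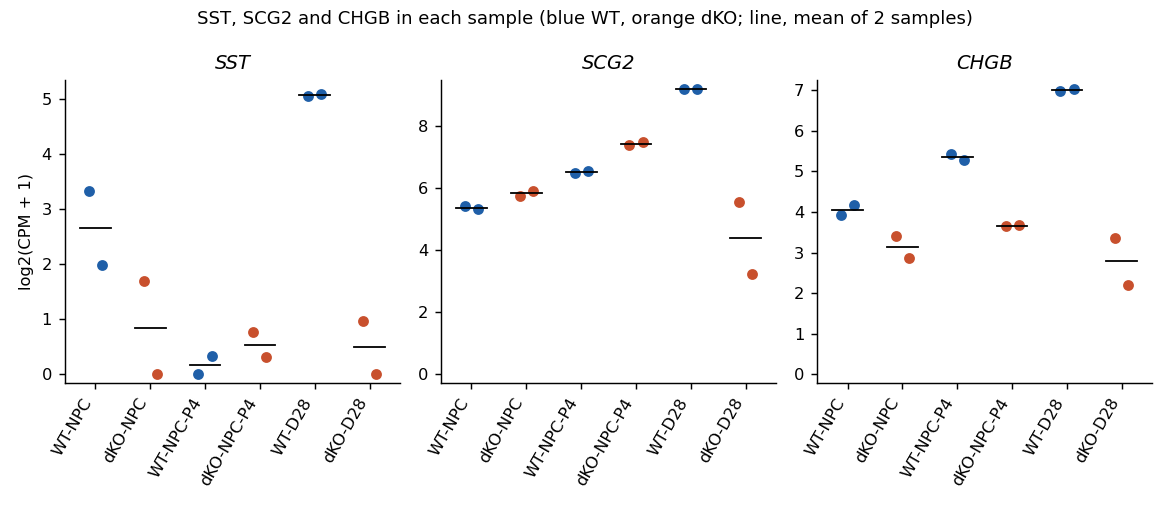
SST, SCG2 and CHGB in each sample, as log2(CPM + 1) on the vertical axis, with 1 point per sample (blue WT, orange dKO) and a line at the mean of the 2 samples of each group on the horizontal axis. The 2 WT-D28 points lie together and above all other samples for each gene, and the 2 dKO-D28 points are far apart for SCG2 and CHGB.

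SCG2 (ENSG00000171951, secretogranin II, the precursor of secretoneurin, on chromosome 2 at 223596940 to 223602361, minus strand, hg38) was the most abundant of the 10 genes in 5 of the 6 groups, compared per kilobase of exon. Its level in WT NPCs at P2 was 41.2 and 38.9 CPM, from 32 and 53 counts. In WT-D28 cells it was 578 and 579 CPM, from 4891 and 5840 counts. The log2 fold change was 3.86 ± 0.64 (adjusted p = 0.00261). dKO NPCs at P2 had 52.5 and 58.5 CPM, a log2 difference of 0.48 ± 0.77 from WT (adjusted p = 0.847). dKO-D28 cells had 45.6 and 8.37 CPM, so that the first sample was near the dKO NPCs and the second below every other sample of the study. Against dKO NPCs the log2 fold change was -1.10 ± 0.67 (adjusted p = 0.394). It was -2.73 (adjusted p = 8.47e-11) without sample 1 and -0.28 (adjusted p = 0.228) without sample 2, so that 1 library decided this call. Against WT-D28 cells SCG2 was lower in both samples, by a log2 fold change of -4.47 ± 0.57 (adjusted p = 0.000529), which was -6.09 without sample 1 and -3.66 without sample 2. The difference between the 2 differentiation changes was -4.96 ± 0.94 on the log2 scale (adjusted p = 0.00827).

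At P4, SCG2 stood at 87.5 and 92.1 CPM in WT and at 166 and 175 CPM in dKO NPCs, and the samples of the 2 groups did not overlap. That difference was 0.92 ± 0.50 on the log2 scale, below a 2-fold change, and missed the adjusted threshold (adjusted p = 0.177). Between P2 and P4, SCG2 was called higher in dKO NPCs (log2 fold change 1.62 ± 0.59, adjusted p = 0.109), a call that was lost when any of the 4 samples was left out. In WT NPCs the same change was 1.17 ± 0.69 (adjusted p = 0.230). In a fit of those 4 samples alone it was 1.14 and was called (adjusted p = 1.43e-06), so the call depends on which samples set the spread.

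CHGB (ENSG00000089199, chromogranin B, chromosome 20 at 5911510 to 5925353, plus strand) rose in WT cells and not in dKO cells. WT NPCs at P2 had 14.2 and 16.9 CPM and WT-D28 cells 126 and 129 CPM, a log2 fold change of 3.01 ± 0.28 (adjusted p = 4.21e-07). dKO NPCs at P2 had 9.61 and 6.27 CPM and dKO-D28 cells 9.31 and 3.61 CPM, a log2 fold change of -0.34 ± 0.42 (adjusted p = 0.686). The levels of those 2 dKO groups overlapped. Without sample 1 the change was -1.12 (adjusted p = 0.0657), and without sample 2 it turned to 0.24 (adjusted p = 0.718). At day 28 CHGB was lower in dKO than in WT cells by a log2 fold change of -4.35 ± 0.24 (adjusted p = 9.54e-10), or -5.11 and -3.76 without sample 1 and sample 2. The difference between the differentiation changes was -3.35 ± 0.56 (adjusted p = 0.000307).

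Among NPCs, CHGB was called lower in dKO cells at both passages. At P4 the levels were 42.5 and 37.7 CPM for WT samples against 11.5 and 11.8 CPM for dKO samples (log2 fold change -1.77 ± 0.24, adjusted p = 1.95e-05), and CHGB was the 1 call among the 3 genes there, where 22.3% of genes were called. At P2 it was also the 1 call, against 4.43% of genes, but at the limit of the 2-fold rule and short of the adjusted threshold (log2 fold change -1.0 ± 0.45, adjusted p = 0.296). It was lost without either WT sample or without dKO sample 2, and in the wider fit SST was called in its place. In WT NPCs CHGB was called higher at P4 than at P2 (log2 fold change 1.33 ± 0.31, adjusted p = 0.00307). In dKO NPCs that change was 0.56 ± 0.39 (adjusted p = 0.337). The difference between these 2 passage changes was -0.77 ± 0.52 (adjusted p = 0.318), so that a difference in CHGB between the genotypes' passage changes was not shown.

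CHGA (ENSG00000100604, chromogranin A, chromosome 14 at 92923150 to 92935285, plus strand), the granin most used as a neuroendocrine marker, had 15 counts in all. Of these, 13 lay in WT-NPC-P4 sample 1 and 0 in sample 2 of the same group, with 1 count in each WT-D28 sample and 0 in all other samples. The wider fit called CHGA higher in WT-NPC-P4 than in WT-NPC cells and lower in dKO-NPC-P4 than in WT-NPC-P4 cells, and both calls were gone without that 1 sample, the first also without either WT-NPC sample. In that 1 sample CHGA was at 4.28 CPM, and in the WT-D28 samples, where SCG2 and CHGB were highest, it was at 0.118 and 0.0991 CPM.

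**Figure D2:**
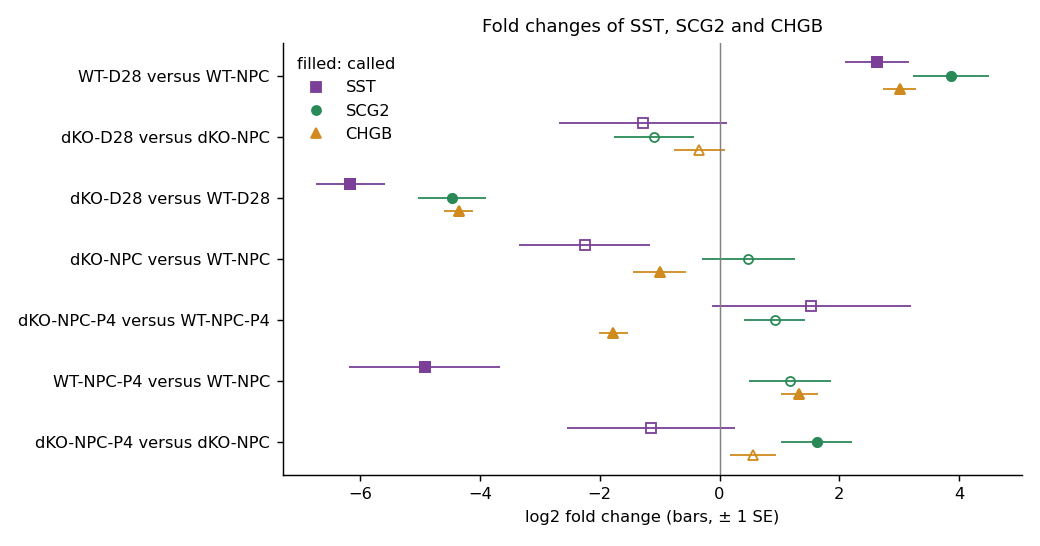
Log2 fold change (horizontal axis) of SST, SCG2 and CHGB in the 7 comparisons of 2 groups (vertical axis), with bars of 1 standard error and filled symbols for called changes. All 3 genes are called in WT-D28 versus WT-NPC and dKO-D28 versus WT-D28, and none in dKO-D28 versus dKO-NPC.

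SST (ENSG00000157005, somatostatin, an inhibitory peptide of interneurons and of hypothalamic neurons, chromosome 3 at 187668912 to 187670394, minus strand) was abundant in 1 group only. It had 271 and 334 counts in WT-D28 samples, or 32.0 and 33.1 CPM. WT NPCs at P2 had 7 and 4 counts, which in those shallow libraries were worth 9.0 and 2.94 CPM, and dKO NPCs at P2 had 3 and 0 counts. At P4 there were 0 and 1 counts in WT and 3 and 1 in dKO NPCs, and dKO-D28 cells had 4 and 0. The 2 WT-D28 samples lay above all other 10.

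From WT-NPC to WT-D28 cells SST rose by a log2 fold change of 2.63 ± 0.53 (adjusted p = 0.00109). In summed counts, WT-D28 cells held 77.1 times the SST of dKO-D28 cells (95% exact interval 29.9 to 284, counting error only), and the fitted log2 fold change was -6.16 ± 0.57 (adjusted p = 6.07e-07), or -5.04 without dKO-D28 sample 2. Without sample 1 the dKO-D28 group is at 0 counts. SST also fell from P2 to P4 in WT NPCs, where 2 of the 3 genes were called (SST lower, CHGB higher) against 19.8% of genes. With 11 counts at P2 and 1 at P4, the P2 level was 36.0 times that at P4, with an interval of 5.23 to 1550 (adjusted p = 0.00723). From P2 to P4 in dKO NPCs, SST had 3 and 4 counts in all and was not called. The difference between the differentiation changes of dKO and WT cells was -3.91 ± 1.70 for SST (adjusted p = 0.101) and rested on the 3 counts of dKO-NPC sample 1: without that sample it was 1.33. It was -7.79 without dKO-D28 sample 1 and -2.81 without sample 2.

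NPY (ENSG00000122585, neuropeptide Y, chromosome 7 at 24284188 to 24291862, plus strand), a peptide of interneurons and of arcuate neurons that drive feeding, showed the reverse of SST at day 28. It had 61 and 26 counts in dKO-D28 samples, or 14.6 and 4.94 CPM, and 1 count in each WT-D28 sample. The summed level was 85.4 times higher in dKO-D28 cells, with an interval of 22.9 to 716 (adjusted p = 7.76e-20 in the wider fit). The 2 groups did not overlap, and the call held without sample 1 (log2 fold change 5.13) and without sample 2 (6.66). Sample 1 was 2.95 times higher than sample 2.

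From dKO-NPC cells, with 1 count in each sample, NPY rose 12.8 times to dKO-D28 cells (interval 3.45 to 108, adjusted p = 8.03e-05). The log2 fold change was 3.71, or 2.76 without dKO-D28 sample 1 and 4.30 without sample 2. Per kilobase of exon NPY was at 16.3 and 5.54 RPKM in dKO-D28 cells, beside 17.7 and 3.25 RPKM for SCG2, and these 2 leading genes of that group could not be ordered. At P4 the direction was the opposite one, with 10 and 8 counts in WT and 3 and 0 in dKO NPCs, 7.27 times higher in WT (interval 2.12 to 38.5, adjusted p = 0.00332). In WT NPCs it was at 0 counts in both P2 samples, against which the P4 level was 1.84-fold higher, counting 3 over the P2 group. The lower limit of the exact interval for this ratio was 1.35.

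**Figure D3:**
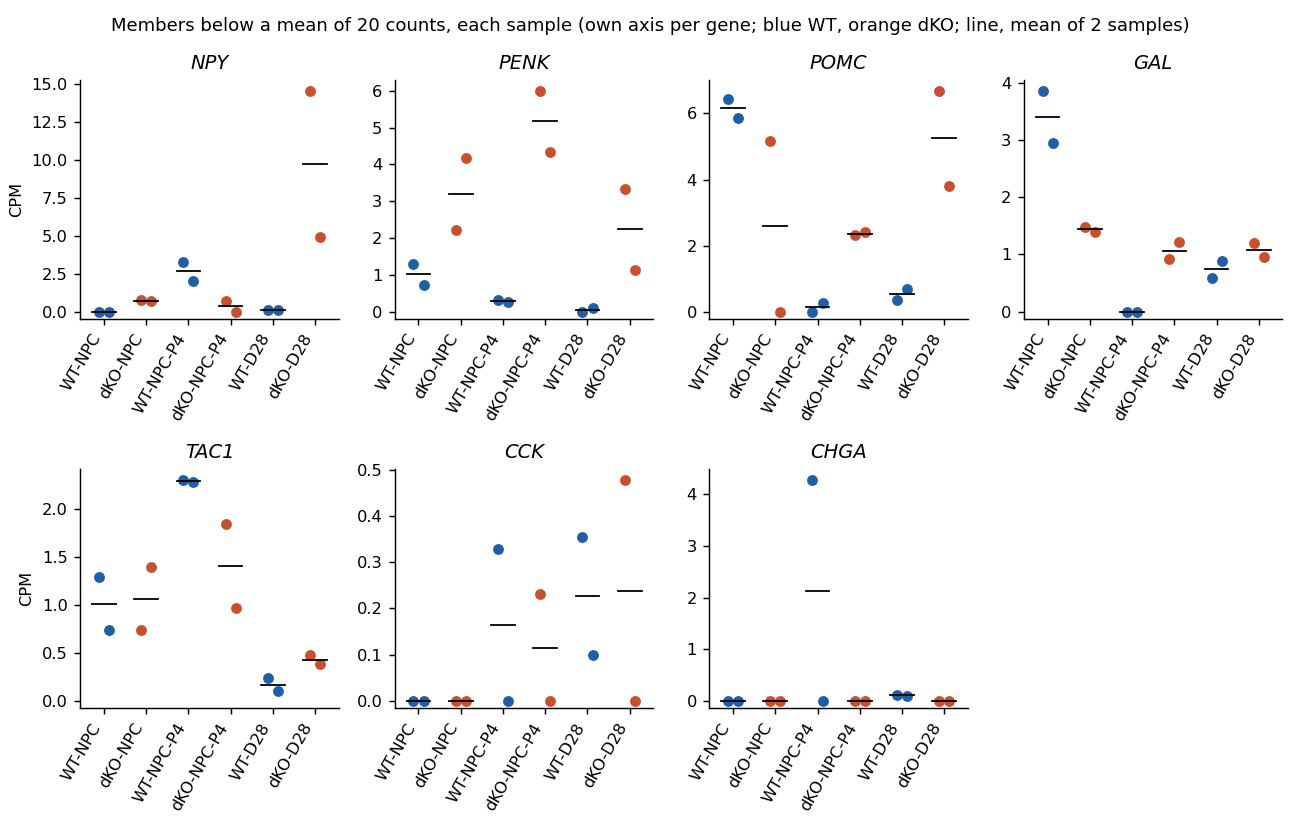
CPM (vertical axis, its own scale for each gene) of the 7 genes below a mean of 20 counts in each sample, with the 6 groups on the horizontal axis, 1 point per sample (blue WT, orange dKO) and a line at the mean of the 2 samples. NPY is highest in dKO-D28 cells, PENK and POMC are higher in dKO than in WT cells at P4 and at day 28, and CHGA has counts in 1 of the 2 WT-NPC-P4 samples.

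PENK and POMC, the precursors of the enkephalins and of beta-endorphin, ACTH and the melanocortins, were both higher in dKO cells at P4 and at day 28. PENK (ENSG00000181195, chromosome 8 at 56436674 to 56446671, minus strand) had 26 and 18 counts in dKO and 1 and 1 in WT NPCs at P4. That was 18.2 times more in dKO cells, with an interval of 4.74 to 155 (adjusted p = 7.6e-06). At day 28 it had 14 and 6 counts in dKO and 0 and 1 in WT cells, 39.3 times more (interval 6.28 to 1630, adjusted p = 2.85e-06). The groups did not overlap at either point, and the day 28 log2 fold change was 3.76 and 5.25 without dKO-D28 samples 1 and 2. At P2 the counts were 3 and 6 in dKO and 1 and 1 in WT cells, a ratio of 3.45 (interval 0.715 to 32.8) that was not called. An antisense gene, PENK-AS1, overlaps PENK and had 11 counts over all samples. Whether strand was used in counting is not given in the sources used here, so reads of the 2 genes cannot be told apart.

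POMC (ENSG00000115138, chromosome 2 at 25160853 to 25168903, minus strand) stood at 28 and 20 counts in dKO-D28 and 3 and 7 in WT-D28 samples, 9.42 times higher in dKO cells (interval 4.71 to 20.9, adjusted p = 1e-07). The log2 fold change was 3.14, or 2.72 without dKO-D28 sample 1 and 3.51 without sample 2. At P4 it had 10 and 10 counts in dKO and 0 and 1 in WT NPCs, a ratio of 16.5 (interval 2.64 to 684, adjusted p = 0.00156). In WT cells, POMC was highest at P2, with 5 and 8 counts worth 6.43 and 5.88 CPM, and lower at day 28 by 11.3 times (interval 4.57 to 28.7, adjusted p = 2.94e-05). In dKO NPCs at P2 it had 7 counts in sample 1 and 0 in sample 2, so the P2 level of dKO cells was not settled at this depth. The difference between the differentiation changes was 4.39 ± 0.93 (adjusted p = 5.22e-05). It lay between 3.35 and 10.8 when single samples were left out.

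Pituitary markers moved with POMC at day 28, and their part in the result was not tested. TBX19, the factor of corticotrophs, which are the classic POMC cells outside the hypothalamus, was at 6.45 and 3.99 CPM in dKO-D28 and 2.48 and 2.58 CPM in WT-D28 samples, beside 6.69 and 3.8 CPM of POMC in dKO-D28 samples. The 8 pituitary markers summed to 8.60 and 5.13 CPM in dKO-D28, to 3.07 CPM in each WT-D28 sample, and to between 1.29 and 8.60 CPM over all samples. GH1 was at 0 in all 6 groups and POU1F1 in 5.

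GAL, TAC1 and CCK were at 10 counts or fewer in every sample. GAL (ENSG00000069482, galanin, chromosome 11 at 68683779 to 68691175, plus strand) had 0 and 0 counts in WT NPCs at P4 and between 2 and 9 in each other sample. Against WT-NPC-P4 cells set at the floor of 3 counts over the group, dKO-NPC-P4 cells were 2.48-fold higher (adjusted p = 0.0236). WT-NPC cells were 7.63-fold higher (adjusted p = 0.00117). These ratios leave out counting error in the higher group. The lower limits of the exact intervals were 1.63 for dKO-NPC-P4 cells and 4.71 for WT-NPC cells. From P2 to day 28 in WT cells GAL was called lower, 4.34 times (interval 1.48 to 11.5), with an adjusted p of 0.0995. TAC1 (ENSG00000006128, the substance P and neurokinin A precursor, chromosome 7 at 97732084 to 97740472, plus strand) had between 1 and 9 counts and was called in none of the comparisons; its CPM was highest in WT NPCs at P4, with 2.30 and 2.28. CCK (ENSG00000187094, cholecystokinin, chromosome 3 at 42257825 to 42266185, minus strand) had 8 counts in all, 0 in every P2 sample, and was likewise called in no comparison, which at this depth does not show that it did not differ.

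Counted over the 7 lower genes, the wider fit called 5 at P4 between dKO and WT NPCs (PENK, POMC and GAL higher, NPY and CHGA lower, the last on 1 sample), against 14.7% of genes. Between P4 and P2 in WT NPCs it called 4 (NPY and CHGA higher, POMC and GAL lower), against 12.8%. Between dKO and WT NPCs at P2 it called 0 of the 7, against 3.36%, and 0 between P4 and P2 in dKO NPCs, against 8.40%. In the main test SCG2 was the 1 call of 3 between P4 and P2 in dKO NPCs, where 9.83% of genes were called. The difference between the passage changes of the 2 genotypes was called for 0 of the 3 genes of the main test (background 19.3%), although DESeq2 and the wider fit called SST (log2 difference 3.74 and adjusted p = 0.138 in the wider fit). The wider fit also called it for NPY, POMC and GAL (background 10.4%), with adjusted p = 0.107, 0.00196 and 0.0354.

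Compared per kilobase of exon, SCG2 led in WT-D28 cells with 224 and 225 RPKM, followed by SST with 52.8 and 54.5 RPKM and CHGB with 28.3 and 29.0 RPKM. These 3 did not overlap, and the next gene, GAL, was at 0.455 and 0.686 RPKM. In WT NPCs at P4 the order was SCG2, CHGB with 9.55 and 8.48 RPKM, NPY with 3.69 and 2.27 RPKM and TAC1 with 1.35 and 1.33 RPKM. In dKO-D28 cells NPY and SCG2 overlapped at the head, followed by POMC with 4.35 and 2.47 RPKM, which overlapped SCG2 but not CHGB, with 2.09 and 0.812 RPKM. The precursors that stood high differed between the 2 genotypes at day 28: SST in WT cells, NPY and POMC in dKO cells.

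The proteins that cut, sort and release these peptides were followed with a list of 33 genes, of which 30 were tested. In WT-D28 against WT-NPC cells 14 were called higher and 0 lower, where 12.9% of all genes were called higher and 11.5% lower, with a median log2 fold change of 0.87 against 0.04 over all genes tested. The largest rises were of PCSK1N (proSAAS, an inhibitor of prohormone convertase 1) by 3.61, RAB3A (a vesicle GTPase) by 3.16, PCSK1 (prohormone convertase 1) by 3.08 and PTPRN (IA-2, a dense-core vesicle membrane protein) by 2.85 on the log2 scale. PCSK1 went from 2.57 and 8.81 CPM to 54.6 and 54.9 CPM. RAB27B, among the 14, reached the limit of 20 counts only through WT-D28 cells. When dKO NPCs were differentiated, 4.01% of all genes were called higher and 3.14% lower. In dKO-D28 against dKO-NPC cells 2 were called higher and 1 lower, with a median of 0.00, and without dKO-D28 sample 1 the counts were 1 higher and 8 lower.

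In dKO-D28 against WT-D28 cells, where 11.7% of all genes were called lower and 12.4% higher, 16 vesicle and processing genes were called lower and 3 higher, with a median log2 fold change of -1.28 against 0.00 over all genes. Without dKO-D28 sample 1 there were 17 lower and 3 higher, and without sample 2, 16 lower and 2 higher. The log2 fold change was -3.92 for PTPRN, -3.88 for PCSK1N, -3.49 for RAB3A, -3.32 for SYT5 (a synaptotagmin) and 1.3 for SORL1 (a sorting receptor). At P4, dKO NPCs had 9 lower and 4 higher than WT, where 11.2% of all genes were called lower and 11.1% higher. Among the lower ones were SYT4 at -4.01 and SCG3 (secretogranin III, a granin that binds CHGA) at -2.75. VGF (a granin-like peptide precursor) was at 53.1 and 53.9 CPM in dKO against 3.95 and 6.07 CPM in WT NPCs at P4, a log2 fold change of 3.38 ± 0.25 (adjusted p = 1.5e-08). At P2, 1 of the 30 was called between the genotypes, SYT4 at -1.43 (adjusted p = 0.215), where 4.43% of all genes were called.

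Of 52 other peptide precursors, 9 were tested, and 6 of those were called lower and 2 higher in WT-D28 against WT-NPC cells, where 11.5% of all genes were called lower and 12.9% higher. TAC3 (neurokinin B) was at 0 CPM in both WT NPC samples at P2 and at 17.9 and 16.4 CPM in WT-D28 cells. In dKO-D28 cells it was at 0.239 and 0.570 CPM. TAC3 and GNRH1 (gonadotropin-releasing hormone 1), the 2 called higher in WT-D28 against WT-NPC cells, entered the main test only through WT-D28 cells. Their calls against that group, also as the 2 called lower in dKO-D28 cells, are a description only. TRH (thyrotropin-releasing hormone) fell by 3.34 on the log2 scale, from 57.9 and 40.4 CPM to 5.68 and 3.77 CPM. Between the genotypes at day 28, 12.4% of all genes were called higher and 11.7% lower in dKO cells. In dKO-D28 against WT-D28 cells 4 were called higher and 2 lower, or 4 and 4 without dKO-D28 sample 1 and 5 and 2 without sample 2. CRH (corticotropin-releasing hormone) rose most, from 0 and 0.297 CPM in WT to 8.60 and 10.1 CPM in dKO cells. At P4 CRH was at 178 and 167 CPM in dKO and at 16.8 and 16.4 CPM in WT NPCs, a log2 fold change of 3.38 (adjusted p = 3.39e-08), a higher CPM than that of any of the 7 peptide precursors in any sample. NMU (neuromedin U) and ADM (adrenomedullin) were also higher in dKO cells at P4, by 1.43 and 2.06.

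Of 26 receptors for the peptides, 3 were tested. SSTR2, a somatostatin receptor, rose by 2.95 on the log2 scale in WT-D28 against WT-NPC cells, fell by 2.51 in dKO-D28 against WT-D28 cells, and stood at 67.5 and 66.3 CPM in WT against 3.0 and 3.38 CPM in dKO NPCs at P4. OPRK1, the kappa opioid receptor, was called higher in dKO than in WT cells at day 28 (log2 fold change 2.31) and lower at P4 (-1.06). Without dKO-D28 sample 2, OPRK1 fell below the limit of 20 counts and was not tested. MC1R, a receptor of POMC peptides, was called lower in dKO than in WT cells at day 28 (-1.73, adjusted p = 0.00163), at 6.45 and 1.52 against 13.7 and 11.6 CPM, and higher at P4 (1.36, adjusted p = 0.031). MC1R reached the limit of 20 counts only through WT-D28 cells. OPRK1 stood just above it and would miss it without WT-NPC-P4, dKO-NPC-P4 or dKO-D28 cells. The calls of MC1R and OPRK1 in comparisons with those groups are a description only. Of all genes, 12.4% were called higher and 11.7% lower in dKO cells at day 28. At day 28 1 receptor was called higher and 2 lower, or 0 and 1 without dKO-D28 sample 2, where OPRK1 was not tested.

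Among 34 tested cAMP and activity response genes, 7 were called higher and 3 lower in WT-D28 against WT-NPC cells, and 8 higher and 0 lower in dKO-D28 against dKO-NPC cells, against 24.4% and 7.15% of all genes called in either direction. Both used the same cAMP-containing medium at day 28. The dKO counts were 7 higher and 4 lower without dKO-D28 sample 1, and 12 higher and 0 lower without sample 2. The immediate early gene ARC rose by 3.07 on the log2 scale in WT cells. FOSB, another immediate early gene, fell by 1.94 in WT and rose by 2.04 in dKO cells.

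Factors from a list of REST partners, targets and neuroendocrine factors differed in the same comparisons. REST, a repressor of neuronal genes in cells that are not neurons, was at 17.5 and 17.5 CPM in WT-D28 and at 101 and 121 CPM in dKO-D28 cells (log2 fold change 2.67, adjusted p = 3.94e-09). At P4 it was at 33.6 and 53.9 CPM in WT and at 93.5 and 105 CPM in dKO NPCs, where CHGB was lower and SCG2 was not. Of 21 tested genes in this list of REST partners, targets and neuroendocrine factors, 8 were called lower and 1 higher in dKO-D28 against WT-D28 cells (all genes, 11.7% lower and 12.4% higher), with 8 and 1 again without sample 1 and 8 and 3 without sample 2.

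Interneuron factors changed at day 28 as well. Of 19 tested, 12 were called lower and 4 higher in dKO-D28 against WT-D28 cells, where 11.7% of all genes were lower and 12.4% higher. Without dKO-D28 sample 1 these were 11 and 4, and without sample 2, 13 and 4. In WT-D28 against WT-NPC cells 10 were called higher and 4 lower, against 12.9% and 11.5% of all genes. LHX6, needed for SST interneurons, was at 40.2 and 39.9 CPM in WT-D28 and at 0.478 and 0 CPM in dKO-D28 cells. NKX2-1, which acts before it in the ventral forebrain and in the hypothalamus, was at 354 and 348 CPM in WT-D28 and at 1.91 and 0.190 CPM in dKO-D28 cells, although it had been at 87.3 and 116 CPM in dKO NPCs at P2. SP8, a factor of other interneurons, was at 202 and 265 CPM in dKO-D28 and at 0.591 and 0.0991 CPM in WT-D28 cells. In the NPC samples of both genotypes SP8 was already between 93.9 and 182 CPM. Of 10 tested hypothalamic factors 6 were called lower and 2 higher in dKO-D28 cells. ISL1, a regulator of POMC and SST neurons, was at 55.6 and 51.4 CPM in WT-D28 and at 2.15 and 0.951 CPM in dKO-D28 samples. LHX6, LHX8 and SLC32A1 of the interneuron list entered the main test only through WT-D28 cells. So did ISL1, HMX2 and HMX3 of the hypothalamic list. Their calls against WT-D28 cells, which these counts include, were bound to follow and are a description only.

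Markers of cell types moved with these genes as well, and their part in the results was not tested. Summed CPM of 8 GABAergic markers was 977 and 951 in WT-D28 and 63.8 and 28.5 in dKO-D28 samples. All 8 were called lower in dKO-D28 cells (SLC32A1 by way of the filter), where 11.7% of all genes were called lower and 12.4% higher. The 14 neuron markers summed to 4830 and 4820 in WT-D28 and 1620 and 771 in dKO-D28 samples, and 11 of the 13 tested were called lower, or 11 lower and 0 higher without dKO-D28 sample 1 and 9 lower and 2 higher without sample 2. Between the 2 dKO-D28 samples the neuron markers differed 2.10 times, SCG2 5.45 times, CHGB 2.58 times, NPY 2.95 times, PENK 2.93 times and POMC 1.76 times, all higher in sample 1.

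Other markers were higher in dKO-D28 than in WT-D28 cells, as NPY, PENK and POMC were. Of all genes, 12.4% were called higher and 11.7% lower there. The 5 glutamatergic markers summed to 44.7 and 20.7 CPM in dKO-D28 samples and to 0.946 and 1.29 CPM in WT-D28 samples, with 3 called higher and 1 lower, among them TBR1 (log2 fold change 6.25), SLC17A6 (4.32) and SLC17A7 (4.08). Like the peptides, their sum was higher in sample 1. Of 8 tested progenitor markers 4 were called higher and 0 lower, with PAX6 at 187 and 351 CPM and PROM1 at 74.3 and 108 CPM in dKO-D28 samples, and both were higher in sample 2. The neural crest factors TFAP2A and TFAP2B were also called higher (adjusted p = 0.00339 and 0.0107). Both entered the main test only through dKO-D28 cells, so these calls are a description only. TFAP2A was at 5.73 and 31.8 CPM in dKO-D28 samples and at 1.06 and 0.694 CPM in WT-D28 samples. TFAP2B was at 6.45 and 47.5 CPM against 0.118 and 0 CPM, so that both ran against the peptides between the 2 dKO-D28 samples. The part of these markers in the peptide results was not tested.

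**Figure D4:**
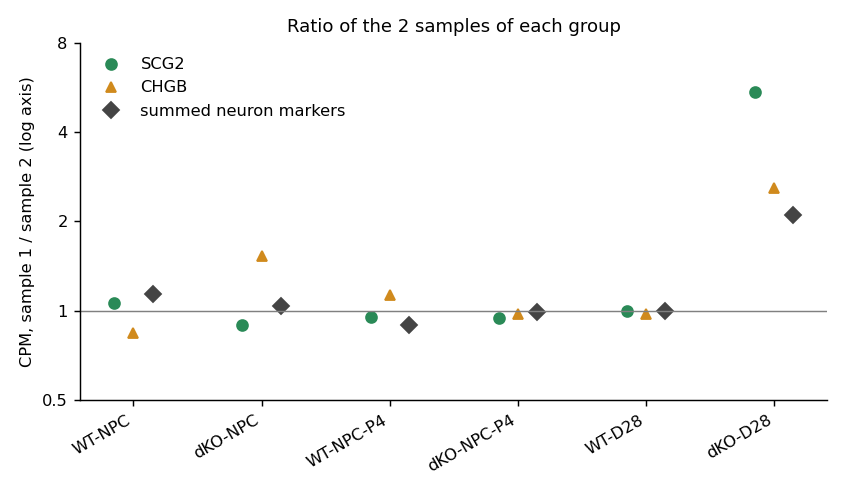
Ratio of the CPM of sample 1 to that of sample 2 (vertical log axis) in each group (horizontal axis) for SCG2, CHGB and the sum of 14 neuron markers. The 3 ratios lie between 0.838 and 1.53 in the first 5 groups, and at 5.45, 2.58 and 2.10 in dKO-D28 cells.

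At P4 the neuron markers summed to 5260 and 5900 CPM in WT and to 1300 and 1310 CPM in dKO NPCs. In dKO cells 11 of 13 were called lower and 1 higher, against 11.2% and 11.1% of all genes. CHGB had its lower level there in dKO cells, whereas SCG2 stood higher in both dKO samples than in both WT samples. The 8 mesenchymal markers summed to 1710 and 1730 CPM in dKO and to 249 and 258 CPM in WT NPCs at P4. Glutamatergic markers summed to 961 and 984 CPM in WT NPCs at P4 and to 0.946 and 1.29 CPM in WT-D28 cells, where SST was highest.

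The genes whose pattern over the 12 samples was most like that of CHGB were RAB3C (a vesicle GTPase), SMPD3 and RUNDC3A, with Pearson's r of log2(CPM + 1) of 0.987, 0.985 and 0.984. Most like SCG2 were CIRBP, SOX8 and SEZ6L2, with r of 0.936, 0.933 and 0.932. Most like SST were a gene known by its identifier ENSG00000280237 (0.969), MAGEL2 and HRH3, a histamine receptor (0.961 each). Between the 3 genes themselves r was 0.816 for SCG2 and CHGB, 0.705 for SST and CHGB and 0.601 for SST and SCG2. The 12 points share the 6 groups and range widely in depth, and these values are a description.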

How the data were processed

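Per the labels and the study's methods, RNA was extracted with TRIzol, prepared with a TruSeq kit and sequenced on a NextSeq instrument, and the authors used HISAT2 2.0.4 to align to hg38, SAMtools 1.3.1 to sort and HTSeq 0.6.0 to count. The authors deposited raw counts per gene, not normalized, for 58302 Ensembl genes in each of 12 samples (756942 to 10601172 counts). The annotation release they counted on is not given in the sources used here. The labels give genotype, day, passage 4 and replicate. Passage 2 comes from the paper, and no batch is named. Symbols, positions and exonic lengths came from GENCODE release 44, in which 98.7% of the genes were found, and promoters from RefSeq.

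In R 4.3.3, counts were scaled with TMM and fitted with edgeR 4.0.16 (robust quasi-likelihood, 6 group means, all 12 samples, no replicate block), for the 13454 genes that averaged 20 counts or more per sample. Calls followed the study's thresholds, unadjusted p below 0.05 and fold change above 2. The fit was tested on simulated counts with known changes. Genes below that mean were tested in a wider fit that kept every gene with 1 count or more. Ratios of summed counts carry exact 95% intervals that cover counting error only, with a floor of 3 counts, since the reads carry no molecular identifiers. CPM uses TMM library sizes, and RPKM divides it by exonic length. With 2 samples per group an exact permutation test cannot go below p = 0.333. Beyond the 10 genes, KDM6A and KDM6B, genes were named from each list as at most the 4 largest called rises and falls per comparison, cell type markers were named singly beside a result, and the 3 genes most correlated with each tested gene were named. The genes and lists were chosen with earlier results of these data known. The alternatives were DESeq2 1.42.0, adjusted calls, other filters, only the samples of the comparison, offsets for GC content and gene length (10 bins each, pseudocount 0.1), a replicate block, and each sample left out. The neural crest marker list is not reported here as a whole.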

Additional observations from a re-analysis of the deposited data

Results flagged for a closer look

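The change from P2 NPCs to day 28 cells differed between dKO and WT cells, by a test of the difference itself, for SST (-3.91 on the log2 scale), SCG2 (-4.96) and CHGB (-3.35), and in the fit of genes with at least 1 count for POMC (4.39). With Benjamini-Hochberg adjustment in edgeR the values for SCG2, CHGB and POMC passed, and that for SST did not in the main test (0.101) but did in the wider fit (0.0238). The p-values of the 2 fits are not on 1 scale. SST entered the main test only through WT-D28 cells, 1 of the 4 groups of this difference, so its call was bound to the filter. The change from P2 to P4 differed between the genotypes in that wider fit for NPY (-7.34), POMC (5.0) and GAL (6.28). NPY had 0 counts in both P2 samples of WT NPCs and GAL 0 counts in both P4 samples, so the sizes of these differences depend on the prior count of the fit and are no bound. POMC's rested on 7 counts in 1 of the 2 dKO NPC samples at P2 and 0 in the other, and lay between 3.98 and 11.4 when single samples were left out.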

How the results depend on the processing

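For SST, SCG2 and CHGB, 178 of 191 single values kept their direction and side of the threshold under settings other than leaving out a sample (8 lost and 5 gained a call, 0 reversed), as did 111 of 132 with a sample left out (10 lost and 7 gained a call, 4 reversed). For the lower genes, 102 of 116 did and 14 lost a call. Genes with at least 1 count gave 6 calls in WT-D28 against WT-NPC, 1 in dKO-D28 against dKO-NPC, 6 at day 28, 6 at P4 between the genotypes, 6 between WT passages and 4 for the passage difference. In it 10 genes rather than 3 were tested, and the 4 calls of the passage difference include SST, which the main test did not call. Requiring at least 10 counts in every sample, which keeps SCG2 alone, gave 1 call in WT-D28 against WT-NPC, 1 at day 28, 0 at P2, 0 at P4, 0 between WT passages and 1 for the differentiation difference. Between the genotypes at P2, DESeq2 gave 2 calls and adjusted calls, only the samples of the comparison and GC content and gene length offsets gave 0. Only the samples of the comparison gave 1 call in dKO-D28 against dKO-NPC, adjusted calls 0 between dKO passages, and DESeq2 1 for the passage difference. The cause was not tested where none is named.

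Leaving out each sample gave 0 to 3 calls in dKO-D28 against dKO-NPC, 0 to 2 at P2, 0 to 0 between dKO passages and 0 to 1 for the passage difference. It moved the log2 fold change of SST between -5.16 and 3.96 (dKO-D28 against dKO-NPC), -2.17 and 4.10 (dKO passages) and -7.79 and 1.33 (differentiation difference), the upper value each time without dKO-NPC replicate 1, which holds all 3 SST counts of its group, and that of CHGB in dKO-D28 against dKO-NPC between -1.12 and 0.24. With the replicate block the differentiation difference gave 3 calls, and 2 with GC content and gene length offsets as well. The block changed no other count of calls. Same-numbered samples deviated with a mean correlation of 0.0177 over 15 pairs of groups, so the numbers were not taken to pair samples. P2 libraries held the fewest counts, and values of 10 counts or fewer there are limited by depth. The alternatives for the lower genes and the lists without dKO-D28 samples were added after seeing the data.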
